A study of Mus musculus with 4 samples.

Results

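The interferon response genes described here are 44 listed genes that interferons induce or that carry the interferon signal. They fall by role into 30 effectors, 4 sensors of foreign RNA with their cofactor, 8 transcription factors of the IRF and STAT families, and 2 receptor chains. A probe set annotated to a single gene was found for 39 of them, out of 19938 genes with such a probe set in the series. A gene with several such probe sets is represented by the one with the highest mean. Isg15, Oas1g, Gbp2 and Igtp have a probe set here that several genes share and are therefore not reported, and Ifi44 was not analysed here. Mx1, Mx2 and Dhx58 lay below the filter on dim probe sets, so 36 genes were tested.

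Whole back skin was taken from C57Bl6 mice 22 days after birth, when hair follicles rest in telogen. Skin was collected at ZT22, which is 22 h after lights on. Of the 4 mice, 2 were heterozygous for Bmal1, with a mutant and a wild-type allele, and 2 were germline knockouts lacking the gene on both alleles. The controls therefore carry a mutant allele too, the deletion affects every tissue of the mouse, and no wild-type mice are compared. The design text calls the replicates littermates, and each mouse gave 1 array.

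Interferons are secreted proteins that cells release when sensors such as RIG-I and MDA5 meet foreign RNA. Type I interferon binds a receptor made of IFNAR1 and IFNAR2, and the signal reaches the nucleus through the complex ISGF3, which holds STAT2 and IRF9. That complex binds the interferon-stimulated response element, ISRE, in front of genes whose products block viral entry, translation or replication. Skin, as a barrier tissue, keeps a low constitutive level of many of these genes. BMAL1 is the transcription factor that pairs with CLOCK on E-box elements to drive the circadian clock.

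All values below are log2 probe set levels after quantile normalization, and differences are knockout minus heterozygous, with limma's standard error (SE). Bmal1 itself, under the symbol Arntl, read 8.90 and 9.08 in heterozygous skin and 8.29 and 8.15 in knockout skin. Its difference was -0.76 (SE 0.12, limma adjusted p = 0.015), so the knockout level came to 58.8% of the heterozygous one. The adjusted p of Arntl ran up to 0.10 over the alternatives. Whether its probes lie within the deleted stretch is not given in the files, so this level is no measure of intact mRNA. Of 16341 tested probe sets, 82 were lower and 241 higher in the knockout at an adjusted p under 0.05, but the total of 323 became 0 (2713 at an unadjusted p under 0.05) when probe sets shared by several genes stayed in the fit. Counts at an unadjusted p are therefore given beside adjusted ones. For the tissue label, all 8 keratinocyte and all 7 fibroblast markers lay above the filter.

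The promoters of these genes show a feature that many of them share in sequence. RefSeq windows from 250 bases before to 50 bases after the transcription start, on GRCm38.p6, were matched by gene identifier for 36 of the 44 genes. The letters GAAA, any 2 bases and GAAA again, a core of the ISRE, were searched on both strands, and overlapping matches were counted separately. They occurred in 19 of the 36 genes (52.8%), against 3.99% of 27025 genes with a window. By role the match was present in 15 of 23 effectors, 2 of 3 sensors, 2 of 8 transcription factors and 0 of 2 receptor chains. The E-box letters CACGTG occurred in 1 of the 36 genes, Trim25, against 8.09% of all genes. A match is a description of letters, not a binding site.

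The 250 bases before the start are printed for 5 effectors, chosen after their values were seen, to set matched promoters beside the levels that follow. Capitals mark matches to this motif on either strand. Ifit3, Ifit1 and Oas1a, lower in the knockout at an unadjusted p under 0.05, have 2 matches each. Ifitm1, lower at the same unadjusted threshold, has no match in this window, while Irgm1 has 2 matches and levels that overlapped between the genotypes. The Ifitm1 window begins downstream of the gene's outermost annotated start (140967429), so the sequence before that start was not searched. The Ifit3 window also begins downstream of such a start (34583119).
Ifit3, chr19:34583279-34583528, plus strand: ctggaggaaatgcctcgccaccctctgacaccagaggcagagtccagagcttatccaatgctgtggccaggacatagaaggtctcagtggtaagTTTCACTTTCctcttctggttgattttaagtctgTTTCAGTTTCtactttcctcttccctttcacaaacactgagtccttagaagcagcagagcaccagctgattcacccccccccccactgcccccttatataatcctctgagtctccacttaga
Ifit1, chr19:34640639-34640888, plus strand: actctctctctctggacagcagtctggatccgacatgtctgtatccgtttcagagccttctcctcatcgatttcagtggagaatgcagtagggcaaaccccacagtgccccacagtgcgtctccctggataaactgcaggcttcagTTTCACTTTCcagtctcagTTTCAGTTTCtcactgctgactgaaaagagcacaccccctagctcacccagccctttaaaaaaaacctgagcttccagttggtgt
Oas1a, chr5:120907526-120907775, minus strand: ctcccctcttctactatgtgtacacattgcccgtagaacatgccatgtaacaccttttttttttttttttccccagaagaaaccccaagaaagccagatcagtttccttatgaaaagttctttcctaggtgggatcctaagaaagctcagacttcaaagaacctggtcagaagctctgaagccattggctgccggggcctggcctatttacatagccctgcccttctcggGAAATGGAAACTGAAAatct
Ifitm1, chr7:140967826-140968075, plus strand: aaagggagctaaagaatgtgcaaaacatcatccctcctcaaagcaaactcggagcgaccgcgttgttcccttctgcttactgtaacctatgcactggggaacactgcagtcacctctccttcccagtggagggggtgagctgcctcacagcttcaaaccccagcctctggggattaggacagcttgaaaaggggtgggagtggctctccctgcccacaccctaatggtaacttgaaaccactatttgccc
Irgm1, chr11:48871421-48871670, minus strand: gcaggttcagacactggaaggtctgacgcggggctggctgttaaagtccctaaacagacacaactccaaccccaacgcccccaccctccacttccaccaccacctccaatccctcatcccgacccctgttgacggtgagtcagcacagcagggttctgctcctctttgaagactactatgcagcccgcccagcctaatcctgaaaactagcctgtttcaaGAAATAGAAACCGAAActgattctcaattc
In Oas1a and in Irgm1 the matches overlap in a single run, and in Ifit3 and Ifit1 they stand apart on the opposite strand. Among the tested genes with a window, 4 of the 5 that were lower at an unadjusted p under 0.05 had a match, and 11 of the other 26 did. The 5 are all effectors, while the 26 include the transcription factors (2 of 8 with a match) and receptor chains (0 of 2). The counts therefore also differ by role, and a link between matches and levels was not tested.

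Of the 36 tested genes, 27 had a difference below 0, or 75%, against 45.8% of all tested probe sets. The median difference was -0.11, against 0.02 over all tested probe sets. At an unadjusted limma p under 0.05, 7 genes were lower, or 19.4%, against 6.38% of all tested probe sets, and all 7 are effectors. In the other direction 2 genes were higher, Eif2ak2 and Irf8, or 5.56%, against 11.6%. The members' median difference was -0.24 without heterozygous array 2, against -0.01 over all probe sets in that fit. Without heterozygous array 1 it was -0.01, against 0.06. After median centring the lower members were 5, against 4.87% of all probe sets, and the higher ones 1, against 18.6%. After adjustment over all tested probe sets 1 gene passed, Ifit3, which is lower, against 0.502% of probe sets lower, 1.47% higher and 1.98% in either direction.

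**Figure D1:**
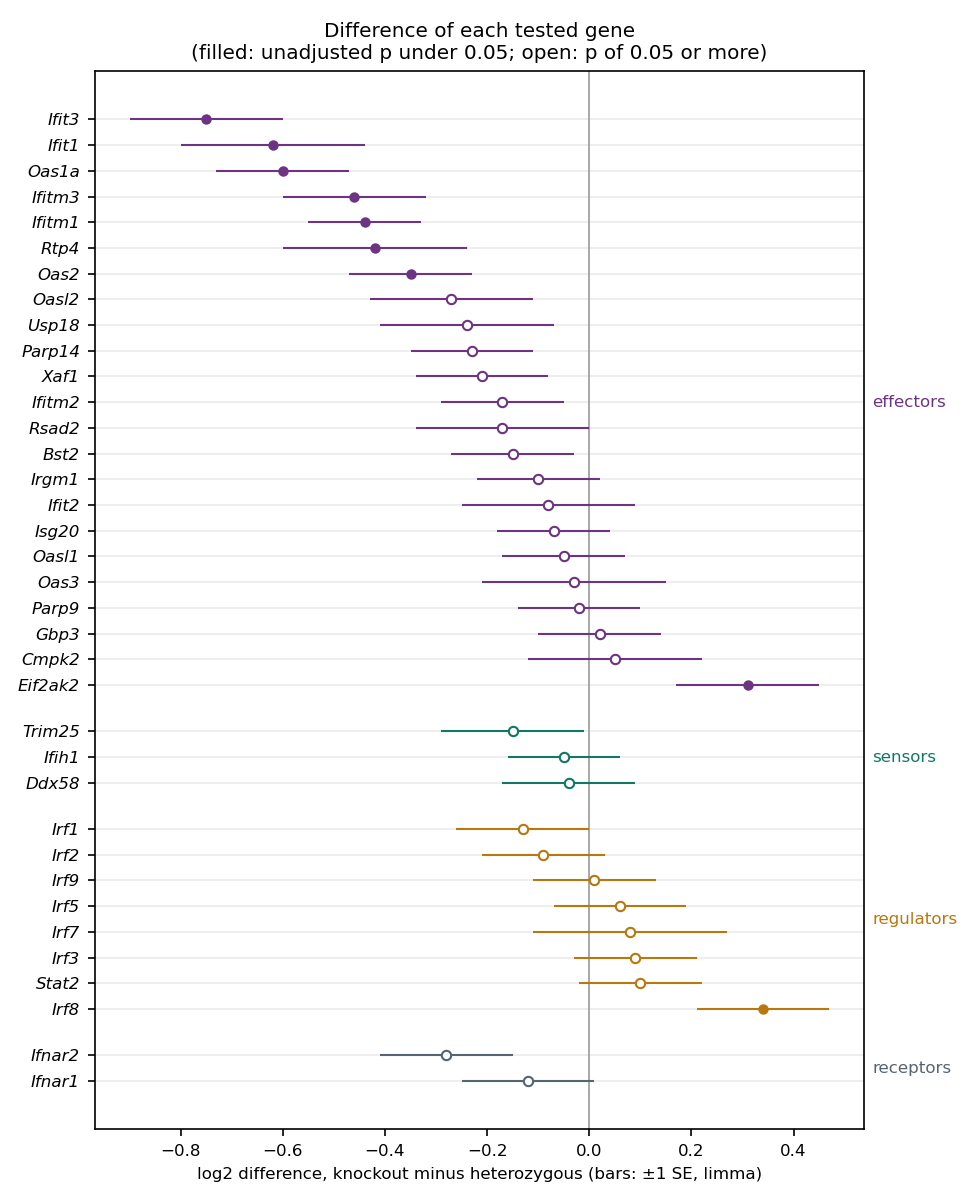
Log2 difference, knockout minus heterozygous, of each of the 36 tested genes, in blocks by role, with bars of 1 limma SE to each side. Filled points have an unadjusted p under 0.05. Effectors run from -0.75 for Ifit3 to 0.31 for Eif2ak2, and the regulators lie between -0.13 and 0.34.

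Among the IFIT genes, Ifit3 fell in the knockout, Ifit1 was lower at an unadjusted p under 0.05, and Ifit2 did not pass. IFIT proteins bind viral RNA and hold back its translation. Ifit3 read 8.70 and 8.43 in heterozygous skin and 7.62 and 8.0 in knockout skin. This left 59.4% of the heterozygous level, a fall of 0.75 on the log2 scale (difference -0.75, SE 0.15, limma adjusted p = 0.0402). This call held in 10 of 15 alternatives, with an adjusted p between 0.0065 and 0.23. It ended without heterozygous array 1 (-0.62, limma adjusted p = 0.056) and without knockout array 1 (-0.56, limma adjusted p = 0.23). Without a filter the limma adjusted p was 0.081, without a variance trend 0.060, and with several-gene probe sets kept 0.17. Ifit3 has 1 probe set, so the alternative that averages a gene's probe sets could not change its level. Ifit1 read 8.20 and 7.94 in heterozygous skin and 7.19 and 7.71 in knockout skin, a difference of -0.62 (SE 0.18, limma adjusted p = 0.105). Both genes read lowest in knockout array 1. Without that array the Ifit1 difference was -0.36. Ifit2, which neighbours them, read 6.84 and 6.63 against 6.78 and 6.54, so that the genotypes overlapped (difference -0.08, SE 0.17).

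The OAS genes, which encode enzymes that make 2'-5' linked oligoadenylates to switch on RNase L, did not pass after adjustment in the main fit. Oas1a read 7.86 and 7.76 in heterozygous skin and 7.30 and 7.10 in knockout skin. This left 65.8% of the heterozygous level (difference -0.60, SE 0.13, limma adjusted p = 0.0504), just above the threshold. Oas1a came under the threshold in 6 of 14 alternatives, with a limma adjusted p down to 0.0067 under the replicate block. With several-gene probe sets kept its limma adjusted p was 0.16. Oas2 read 7.65 and 7.71 against 7.31 and 7.34, a difference of -0.35 (SE 0.12, limma adjusted p = 0.17). The knockout arrays of both genes lay below both heterozygous arrays. Leaving out any array left Oas1a between -0.70 and -0.50 and Oas2 between -0.38 and -0.32. Oas2 was no longer under an unadjusted p of 0.05 when knockout array 1 or knockout array 2 was left out. Oas3 overlapped between the genotypes, with 7.15 and 6.69 against 6.92 and 6.86 (difference -0.03, SE 0.18). The OAS-like genes did not pass either, with -0.05 (SE 0.12) for Oasl1 and -0.27 (SE 0.16) for Oasl2. Oas1a and Oas1g are close copies, and cross-hybridisation between them was not tested.

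The IFITM genes encode small membrane proteins that block fusion of viruses with the cell. Ifitm1 read 9.44 and 9.38 in heterozygous skin and 9.0 and 8.95 in knockout skin. The difference was -0.44 (SE 0.11, limma adjusted p = 0.076), and it ran from -0.47 to -0.41 with any array left out. Its other probe set read -0.23 (SE 0.11). Ifitm3 read 12.41 and 12.08 against 11.68 and 11.88, a difference of -0.46 (SE 0.14, limma adjusted p = 0.129). Without heterozygous array 1 that difference was -0.30, and without heterozygous array 2 it was -0.63 (limma adjusted p = 0.041). Ifitm2 did not pass, with a difference of -0.17 (SE 0.12) in the probe set with the highest mean and -0.26 and -0.19 in the others. In every IFITM probe set named, both knockout arrays lay below both heterozygous arrays. IFITM genes are similar in sequence, so their probe sets may not measure them separately.

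Rtp4, an interferon-induced transmembrane protein, was the remaining effector at an unadjusted p under 0.05. It read 8.64 and 8.12 in heterozygous skin and 7.77 and 8.14 in knockout skin, a difference of -0.42 (SE 0.18, limma adjusted p = 0.258). Heterozygous array 2 and knockout array 2 were nearly equal, and without heterozygous array 1 the difference was -0.16. Usp18, which removes ISG15 from proteins and damps the receptor, had the same pattern, with 8.55 and 8.08 against 7.93 and 8.22. Its difference of -0.24 (SE 0.17) was -0.01 without heterozygous array 1.

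A further 4 effectors had both knockout arrays below both heterozygous arrays at an unadjusted p of 0.05 or more. These were Parp14, an ADP-ribosyltransferase (-0.23, SE 0.12), Xaf1, a pro-apoptotic factor (-0.21, SE 0.13), Bst2, or tetherin, which holds virions on the cell (-0.15, SE 0.12), and Ifitm2 above. In all, 10 of 23 effectors had both knockout arrays below both heterozygous arrays, or 43.5%, against 22.1% of all tested probe sets. Rsad2, or viperin, differed by -0.17 (SE 0.17), Irgm1, a GTPase of the immunity-related family, by -0.10 (SE 0.12), and Isg20, an exonuclease, by -0.07 (SE 0.11). Parp9, the partner of DTX3L, differed by -0.02 (SE 0.12), Gbp3, a guanylate-binding protein, by 0.02 (SE 0.12), and Cmpk2, a mitochondrial nucleotide kinase beside Rsad2, by 0.05 (SE 0.17). Below the filter, Mx1 read 6.10 and 5.99 against 5.95 and 5.74, and Mx2 read 6.02 and 5.32 against 5.21 and 5.40. The MX proteins are dynamin-like GTPases that trap viral components.

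Eif2ak2, which encodes the RNA-activated kinase PKR, went the other way. It read 7.12 and 6.95 in heterozygous skin and 7.31 and 7.38 in knockout skin, a difference of 0.31 (SE 0.14, limma adjusted p = 0.274). Both knockout arrays lay above both heterozygous arrays, as in 27.8% of all tested probe sets. The difference ran from 0.23 to 0.39 with any array left out.

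**Figure D2:**
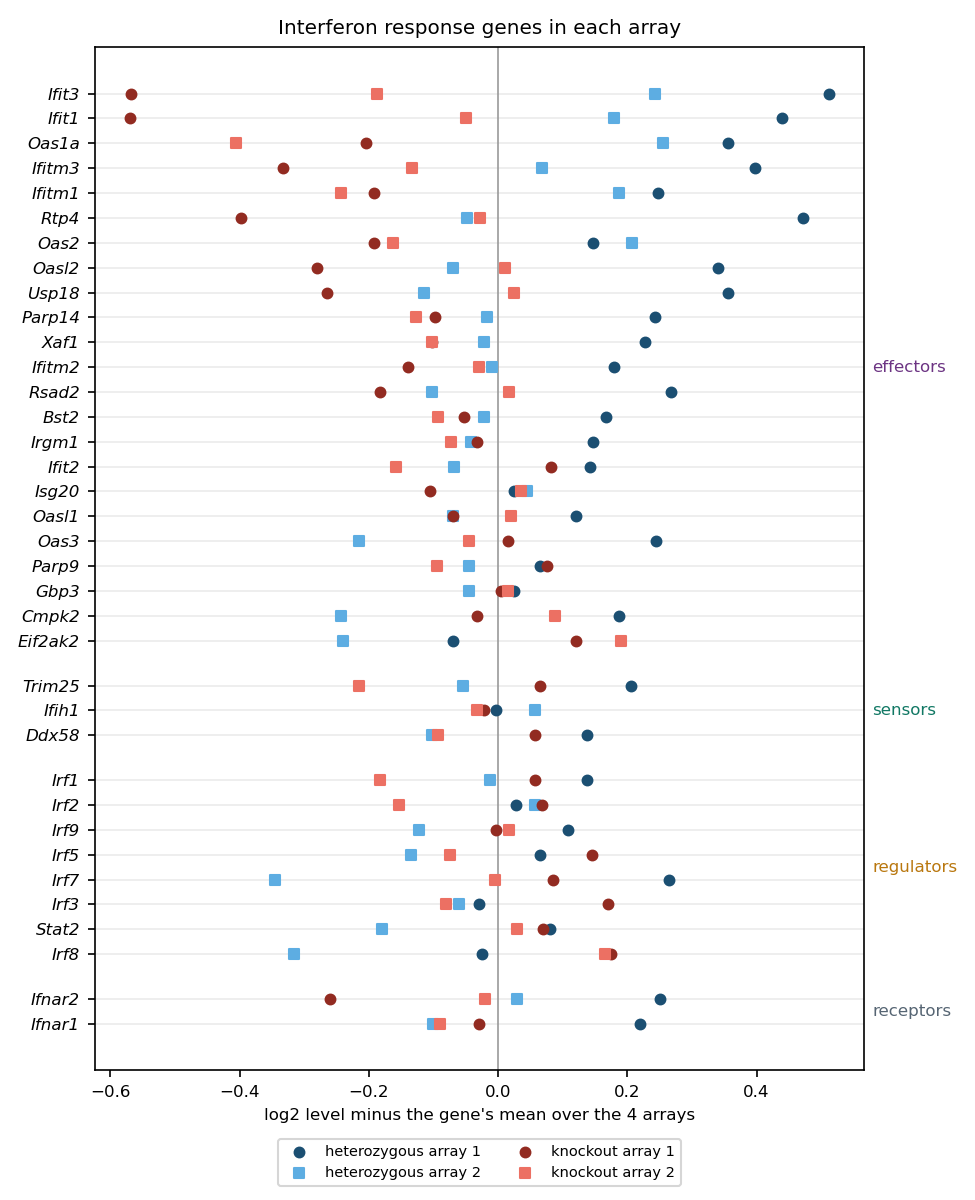
Level of each of the 36 tested genes in each of the 4 arrays, as the log2 level minus the gene's mean over the 4 arrays, in blocks by role. Heterozygous array 1 is the highest array for 27 of the 36 genes, and knockout array 1 is the lowest for 11 of the 23 effectors and for 17.8% of all tested probe sets.

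No sensor gene was lower at an unadjusted p under 0.05 among the 3 tested. Ifih1, which encodes MDA5, read 8.65 and 8.71 in heterozygous skin and 8.63 and 8.62 in knockout skin, a difference of -0.05 (SE 0.11). Ddx58, which encodes RIG-I, read 8.96 and 8.72 against 8.88 and 8.73, with overlapping genotypes and a difference of -0.04 (SE 0.13). Trim25, the ubiquitin ligase that acts with RIG-I, read 8.53 and 8.27 against 8.39 and 8.11, a difference of -0.15 (SE 0.14). Dhx58, which encodes the RIG-I relative LGP2, lay below the filter, at 6.68 and 6.36 against 6.94 and 6.63. The signs of Ifih1 and Ddx58 turned after median centring, to 0.09 and 0.11, near the median of 0.10 over all probe sets in that fit.

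The genes of the ISGF3 complex differed little between the genotypes. Stat2 read 8.63 and 8.37 in heterozygous skin and 8.62 and 8.58 in knockout skin, a difference of 0.10 (SE 0.12, limma adjusted p = 0.722). Irf9, which gives the complex its DNA contact, read 8.79 and 8.56 against 8.68 and 8.70, a difference of 0.01 (SE 0.12, limma adjusted p = 0.976). The knockout arrays of both lay within the heterozygous range. Irf7, which amplifies type I interferon production, read 7.54 and 6.93 against 7.36 and 7.27. Its difference of 0.08 (SE 0.19) became 0.39 when heterozygous array 1 was left out and -0.23 when heterozygous array 2 was, so its sign depended on which heterozygous mouse was used.

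Irf8, a factor of myeloid and dendritic cell development, read 7.63 and 7.34 in heterozygous skin and 7.83 and 7.82 in knockout skin. It was higher by 0.34 (SE 0.13, limma adjusted p = 0.224), and by 0.19 without heterozygous array 2. Irf1, a factor induced by interferon gamma, read 8.47 and 8.32 against 8.39 and 8.15 in its brighter probe set (-0.13, SE 0.13). The probe sets of Irf1 disagreed. The brighter overlapped between the genotypes, while the dimmer read 7.82 and 7.69 against 7.44 and 7.09, with both knockout arrays below both heterozygous ones (-0.49, SE 0.15, limma adjusted p = 0.125). With their mean in place of the brighter, Irf1 joined the genes lower at an unadjusted p under 0.05. Irf2, which competes with IRF1 for its sites, read 9.46 and 9.49 against 9.50 and 9.28 (-0.09, SE 0.12). Irf3, activated downstream of RNA and DNA sensing, read 8.76 and 8.73 against 8.96 and 8.71 (0.09, SE 0.12). Irf5, a factor of Toll-like receptor signalling, read 8.39 and 8.19 against 8.47 and 8.25 (0.06, SE 0.13). Over the 8 factors the median difference was 0.07, with 0 lower and 1 higher (12.5%) at an unadjusted p under 0.05. These shares are near the 6.38% and 11.6% of all tested probe sets. Without heterozygous array 2 the median was -0.05. The difference between factors and effectors was not tested.

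**Figure D3:**
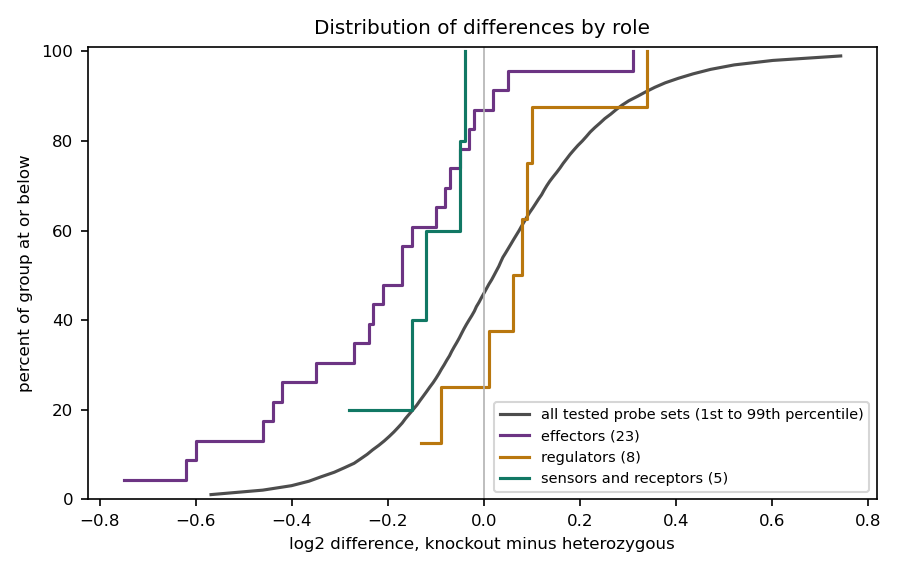
Cumulative percent of genes at or below each log2 difference, knockout minus heterozygous, for 23 effectors, 8 regulators, and 5 sensors and receptors together, beside all tested probe sets from their 1st to their 99th percentile. The effector curve lies to the left of the curve of all probe sets, with a median of -0.17 against 0.02, and the regulator median is 0.07.

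The receptor chains of type I interferon did not pass. Ifnar2 read 9.88 and 9.66 in heterozygous skin and 9.37 and 9.61 in knockout skin, a difference of -0.28 (SE 0.13, limma adjusted p = 0.303). Its knockout arrays lay below its heterozygous ones, by little for knockout array 2. Ifnar1 read 9.40 and 9.08 against 9.15 and 9.09, a difference of -0.12 (SE 0.13), and heterozygous array 1 alone stood apart.

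Single arrays moved the effectors' difference. Heterozygous array 1 was the highest of the 4 for 19 of 23 effectors (82.6%) and for 27 of all 36 genes, against 29.1% of all tested probe sets. With each gene centred on its own mean, the effectors' median was 0.23 in heterozygous array 1, -0.04 in heterozygous array 2, -0.11 in knockout array 1 and -0.05 in knockout array 2. Over all tested probe sets these medians were 0.02, -0.05, 0.04 and -0.01 in the same order. The effectors' median difference was -0.06 without heterozygous array 1, against 0.06 over all probe sets in that fit. It was -0.32 without heterozygous array 2, -0.12 without knockout array 1 and -0.21 without knockout array 2. The 7 genes lower at an unadjusted p under 0.05 with all arrays kept a negative difference with any array left out. Without heterozygous array 1 their differences ran from -0.62 for Ifit3 to -0.16 for Rtp4. Without heterozygous array 2 they ran from -0.88 for Ifit3 to -0.32 for Oas2. Without knockout array 1 the range was -0.70 for Oas1a to -0.24 for Rtp4. Without knockout array 2 it was -0.94 for Ifit3 to -0.37 for Oas2.

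**Figure D4:**
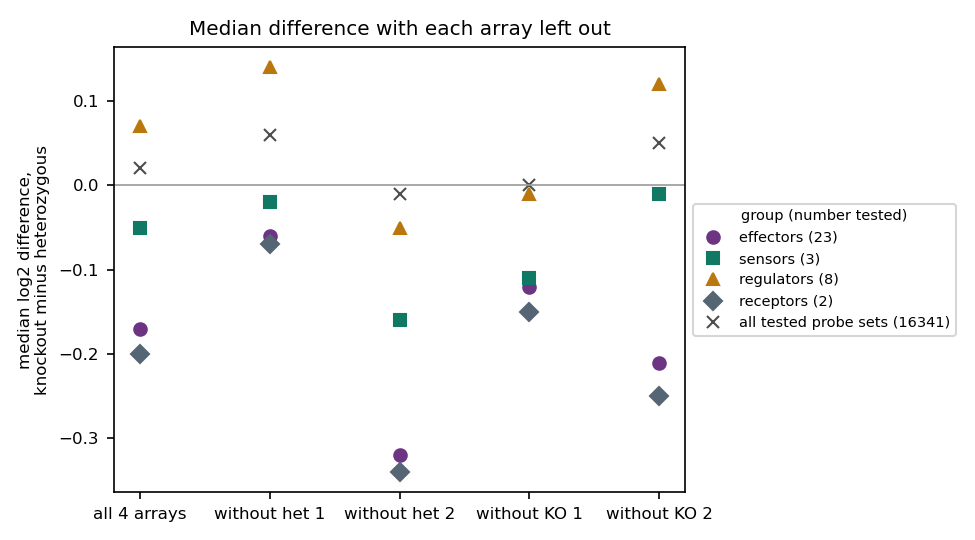
Median log2 difference, knockout minus heterozygous, of each role and of all tested probe sets, with all 4 arrays and with each array left out. The effector median is lowest, at -0.32, when heterozygous array 2 is left out and -0.06 when heterozygous array 1 is, and the regulator median from -0.05 to 0.14.

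Other genes of the interferon pathway were read from a list of 63, of which 48 were tested. At an unadjusted limma p under 0.05, 7 were lower (14.6%, against 6.38% of all tested probe sets) and 1 higher (2.08%, against 11.6%), and 0 passed after adjustment. The largest share was among 26 further interferon-induced genes, where 5 were lower (19.2%) and 0 higher. Ccl5, a chemokine for T cells, read 8.21 and 8.12 in heterozygous skin and 7.60 and 7.67 in knockout skin, a difference of -0.53 (SE 0.12, limma adjusted p = 0.0512). Ifi27l2a, a small interferon-induced protein, read 9.40 and 8.87 against 8.31 and 8.83 (-0.57, SE 0.20), and heterozygous array 2 nearly equalled knockout array 2. Nlrc5, a transactivator of MHC class I genes, differed by -0.41 (SE 0.12) in the brightest of its 19 probe sets. Samhd1, a nucleotide hydrolase that limits viruses, differed by -0.32 (SE 0.12), and Sp100, a nuclear body protein, by -0.33 (SE 0.14). Zbp1, a sensor of Z-form nucleic acid, differed by -0.36 (SE 0.12). Socs3, a feedback inhibitor of cytokine receptors, differed by -0.35 (SE 0.12) in the brighter of its 2 probe sets. The other probe sets of Nlrc5 and Socs3 are not reported here. Tyk2, the kinase bound to IFNAR1, was the higher gene at 0.29 (SE 0.12). Over the 12 tested signalling genes the median difference was 0.00. Of the interferons, Ifng read 7.15 and 7.18 against 7.11 and 7.07 (-0.08, SE 0.13). Ifnb1, Ifnk and Ifne lay below the filter, with differences of 0.11, 0.01 and 0.02.

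Some immune cell markers were lower in the knockout too, and in bulk skin fewer cells of a type and less RNA per cell cannot be told apart. Of 10 tested markers of Langerhans and dendritic cells, 8 had a difference below 0 and 5 of these an unadjusted p under 0.05, with a median difference of -0.26. Over all tested probe sets 45.8% had a difference below 0, and 6.38% were lower at such a p. The summed linear signal of the 11 measured markers was 15557 and 13596 in heterozygous skin and 11723 and 11821 in knockout skin, or 80.8% of the heterozygous mean. The markers with a low p included the MHC class II genes H2-Aa (-0.54, limma adjusted p = 0.0497) and H2-Eb1 (-0.36), which interferon gamma also induces. The rest were Cd74 (-0.33), Ccr7 (-0.42) and Epcam (-0.38). The H2-Aa call held in 6 of 15 alternatives, with an adjusted p up to 0.26. H2-Ab1, of the same class, differed by 0.02 with overlapping arrays, and Cd207, which defines Langerhans cells, by 0.14. Itgax differed by 0.00, Cd86 by -0.14 and Flt3 by -0.19, none at an unadjusted p under 0.05. Xcr1, below the filter, differed by -0.12. The linear sum weighs bright genes most. Heterozygous means were 11.9 for H2-Aa and 11.94 for Cd74, against 7.19 for Itgax and 7.32 for Cd207. The levels of the 11 measured markers were all above 0. The 11 macrophage markers summed to 8970 and 7496 against 6973 and 7621, with heterozygous array 1 highest. Only 1 of the 11, Cd68, was lower at an unadjusted p under 0.05, which is near the 6.38% of all tested probe sets. The 4 plasmacytoid dendritic cell markers summed to 2817 and 3046 against 3115 and 2983, and 0 of them had such a p. Cox6a2, which striated muscle also expresses, differed by 0.18, and Siglech, Ccr9 and Tcf4 by -0.12, -0.07 and -0.07. The 9 T and NK cell markers summed to 1714 and 1530 against 1513 and 1506, again highest in heterozygous array 1. Skeletal muscle markers were higher in both knockout arrays, at 144% of the heterozygous mean, and all 10 had an unadjusted p under 0.05. The part of these cell types in the lower effector levels was not tested.

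**Figure D5:**
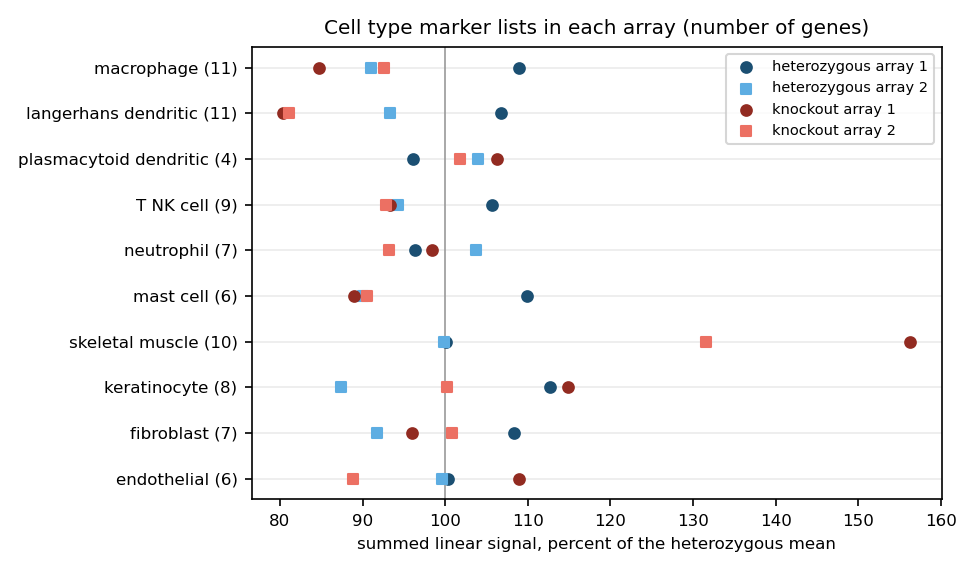
Summed linear signal of 10 cell type marker lists in each array, as a percent of the mean of the heterozygous arrays, with the number of genes summed in brackets. The sum of the Langerhans and dendritic cell markers, weighted to bright genes such as H2-Aa and Cd74, is lower in both knockout arrays. The sum of the skeletal muscle markers is higher in both.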

How the data were processed

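Whole back skin of 2 heterozygous and 2 Bmal1 knockout mice was measured on Affymetrix whole-transcript arrays, 1 array per mouse. The authors deposited 1 table of 35557 probe sets, made with Affymetrix Expression Console 1.1.1 and PLIER 2.0 per the submitters' processing notes. Its values are taken as log2 from their range, 2.54 to 14.9, since the deposited table does not state its scale. The sources used here do not state scaling between arrays or the annotation build. Quartiles of the arrays differed by up to 0.337, so the table was quantile normalized. The number of arrays limits the precision.

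In the platform annotation 21789 probe sets name 1 gene, 1621 name more than 1 and 12147 name none. The 21698 with a known gene identifier took their symbol from RefSeq. Tested were the 16341 probe sets of 1 gene with a mean above the 25th percentile (6.67), with limma 3.58.1 in R 4.3.3 (eBayes with a trend, 2 residual degrees of freedom) and Benjamini-Hochberg adjustment over all of them at 0.05. The fit was tested on simulated data. Genes, roles, marker lists and tests were chosen with earlier results of these data known, so the lists get no test of their own. Every listed gene is named. Values per array are given for those with an unadjusted p under 0.05, the 4 effectors with the largest difference, and all sensors, factors and receptors. Further values per array and the promoters shown were chosen after the values were seen, while the other pathway genes with values are the 8 with the smallest p, plus the interferons. Alternatives covered scaling, an offset of 16, filters, the variance prior, probe set choice, a replicate block and each array left out. Keeping several-gene probe sets was added after seeing the data.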

Additional observations from a re-analysis of the deposited data

How the results depend on the processing

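The number of probe sets past the adjusted threshold, 323, was 544 with the values as deposited, 913 after median centring, 145 without a filter and 1235 under a replicate block. It was 0 (smallest limma adjusted p 0.069, 2713 at an unadjusted p under 0.05) when several-gene probe sets were kept. Their residual SD reached 1.57 at the 95th percentile, against 0.346 for probe sets of 1 gene. With each array left out the count ran from 77 (without knockout array 1) to 986 (without heterozygous array 1). At an unadjusted p under 0.05, 1043 probe sets were lower and 1890 higher, and after median centring 796 and 3047.

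The 7 lower members became 4 of 24 with the filter at the 50th percentile, against 6.43% of all probe sets in that fit. That filter removed Ifit1, Oas1a and Oas2 from the fit. The 2 higher members became 1 with the values as deposited, against 17.6% of all probe sets in that fit. They were also 1 after median centring (against 18.6%), without a filter (8.77%) and with several-gene probe sets kept (9.64%). They were 0 of 24 with the stricter filter, which removed Eif2ak2 and Irf8 from the fit, against 13.2%. With an array left out they were 0 to 3. Medians with an array left out ran from -0.24 to -0.01 over all members, from -0.32 to -0.06 for effectors, from -0.16 to -0.01 for sensors, from -0.05 to 0.14 for regulators and from -0.34 to -0.07 for receptors. After median centring the sensors' median was 0.09 and the receptors' -0.06, against 0.10 over all probe sets in that fit.

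Of 528 values of single members under the alternatives, 474 kept their sign and side of the threshold, 12 crossed to under it, 5, all of Ifit3, crossed above it, and 37 changed sign. The members with sign changes passed the adjusted threshold in no setting. After median centring they were Isg20 (0.08), Oasl1 (0.04), Cmpk2 (-0.03), Parp9 (0.08), Ifih1 (0.09), Ddx58 (0.11), Irf2 (0.06) and Ifnar1 (0.03). With the values as deposited they were Isg20 (0.05), Oasl1 (0.01), Cmpk2 (-0.07), Parp9 (0.04), Ifih1 (0.05), Ddx58 (0.07) and Irf2 (0.03). The median over all probe sets was 0.10 after median centring and 0.07 with the values as deposited, against 0.02 in the main fit. With an array left out, ranges spanned 0 or reached it for Ifit2 (-0.20 to 0.04), Isg20 (-0.14 to 0.00), Oas3 (-0.26 to 0.20), Oasl1 (-0.14 to 0.05), Rsad2 (-0.35 to 0.02), Gbp3 (-0.01 to 0.06), Cmpk2 (-0.16 to 0.27), Parp9 (-0.11 to 0.06), Ddx58 (-0.16 to 0.08) and Ifnar1 (-0.28 to 0.04). Among the factors they did so for Irf2 (-0.20 to 0.03), Irf3 (-0.03 to 0.22), Irf5 (-0.04 to 0.17), Irf7 (-0.23 to 0.39), Irf9 (-0.10 to 0.12) and Stat2 (-0.03 to 0.23). The cause was not tested.

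The replicate block kept the 7 lower and 2 higher members, and brought Ifit1 (limma adjusted p = 0.027), Ifitm1 (0.038) and Oas1a (0.0067) under the threshold. The labels do not say that the number pairs the mice, and the deviations of same-numbered arrays correlated at 0.167 over 2 pairs, so this is no paired result. Fits that left out an array took the spread from the genotype that kept 2, as if the single remaining array varied equally. Differences under about 1 SE, most of those listed above, are not resolved with 2 arrays per genotype, and larger ones can fall short too. Ifnar2, at -0.28 (SE 0.13), had an unadjusted limma p of 0.061.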
